A study of Mus musculus with 36 samples.

Results

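Transcript levels of 9 enzymes of glutamine, aspartate, alanine and proline metabolism were measured in mouse pancreatic fibroblasts that had grown alone or beside tumour cells. The 9 genes were Gpt2, Got1, Got2, Glul, Glud1, Pcx, Aldh18a1, Pycr1 and Prodh, taken by symbol from the 39017 genes of the count table, and all 9 passed the filter on low counts that left 14439 genes for testing. The fibroblasts were of the C57BL/6 strain, and no genotype or age was given for them. They were held for 48 h in co-culture with 1 of 7 tumour sub-clones, named E, H, K, M, N, T and V, or with KPC1, which the labels leave undefined, and were then separated from the GFP-expressing tumour cells by flow sorting. Mono-culture fibroblasts served as the control, and no time in culture or sorting step is given here for them. Their sample titles are numbered after those of all co-cultures. The part of such handling in differences shared by all co-cultures was not tested. Each of the 9 groups held 4 libraries, 36 in all, and each tumour sub-clone is a single clone. Nothing in the labels says that the 4 libraries of a group came from separate cultures, so p-values here measure only the spread between these libraries.

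These enzymes move nitrogen between a few amino acids and pyruvate, oxaloacetate and 2-oxoglutarate. The transaminases Gpt2, Got1 and Got2 pass the amino group of glutamate to pyruvate or oxaloacetate and so make alanine or aspartate, Glul joins ammonia to glutamate to give glutamine, and Glud1 interconverts glutamate and 2-oxoglutarate in mitochondria. Pcx makes oxaloacetate from pyruvate, Aldh18a1 and Pycr1 catalyse the first and the last steps from glutamate to proline, and Prodh begins the breakdown of proline. Fibroblasts are known for secreting collagen, a protein rich in proline.

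Libraries held 12532122 to 21985538 counts. Levels are given as CPM (counts scaled to library size, with TMM factors between libraries) and as RPKM, which also divides by gene length, where genes are compared with each other. All 11 fibroblast markers examined were detected in every group, and their summed level was 21556 to 23530 CPM in mono-culture and 11374 to 33918 CPM in co-culture libraries. The group mean of this sum was 22331 CPM in mono-culture, lower with H (17765), V (17467), T (18074) and KPC1 (15472), and higher with E (24572), N (24954), K (28140.0) and M (28195). The summed level of 11 epithelial markers was 2.89 to 4.18 CPM in mono-culture and 20.5 to 799.6 CPM in co-culture libraries. Of these, the keratins Krt8, Krt18 and Krt19 made up most of the signal, while Epcam was at 0 in 24 libraries, Cldn4 in 34 and Esrp1 in 31. By group the mean epithelial sum was 538.5 CPM with clone N, 499.1 with T, 358.6 with KPC1, 357.0 with E, 251.5 with M, 159.1 with H, 153.2 with K and 103.8 with V. The part of these transcripts, and of the differences in fibroblast markers, in the results that follow was not tested. The immune sum reached 15.4 CPM at most and the endothelial sum 6.39 CPM, with Cd3e at 0 in all 36 libraries. In bulk libraries, fewer cells of a type and less RNA per cell cannot be told apart.

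In mono-culture the mean level per length was highest for Got2, at 75.7 ± 2.83 RPKM (SD, n = 4 here and below), followed by Aldh18a1 at 64.3 ± 7.69 RPKM and Glud1 at 59.1 ± 3.86 RPKM. Got1 stood at 30.96 ± 1.93 RPKM, Gpt2 at 26.4 ± 3.16, Pycr1 at 20.6 ± 2.75, Pcx at 13.6 ± 2.25 and Glul at 8.63 ± 1.26 RPKM. Prodh was the lowest of the 9, at 0.31 ± 0.12 RPKM, with 6 to 76 counts in any library of the study. The mitochondrial aspartate transaminase was thus above its cytosolic form, and proline synthesis enzymes were far above the enzyme that begins proline breakdown.

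Each co-culture was compared with mono-culture by edgeR's quasi-likelihood test, with Benjamini-Hochberg adjustment over the 14439 genes and a threshold of 0.05; all 8 comparisons share the 4 mono-culture libraries. With clone E 3 of the 9 enzymes passed, 1 higher and 2 lower, against 32% of all genes tested. With clone H 6 passed, 4 higher and 2 lower, against 54.2%. With clone V 6 passed, 5 higher and 1 lower, against 58.3%; under scaling by library size alone the split was 5 higher and 2 lower. The clone K co-culture moved fewest, with 2 lower and none higher, against 19.1%. With clone M 6 passed, 2 higher and 4 lower, against 23%. Clone N gave 3 higher and 2 lower, against 39%, and clone T gave 6 higher and 2 lower, against 49.8%. With KPC1 5 were higher and 2 lower, against 59%. Calls of Got2, Glul, Glud1 and Aldh18a1 in single co-cultures, and that of Pycr1 between KPC1 and the clones, also moved with that scaling. In all, 43 of the 72 gene and co-culture pairs passed, 26 higher and 17 lower. The median log2 fold change over the 9 enzymes ran from -0.53 with clone M to 0.80 with KPC1. The median over all genes lay between -0.0090 and 0.012, but TMM scaling holds it near 0. Taken without sign, the median log2 fold change over all genes ran from 0.22 with clone K to 0.49 with KPC1, and was 0.24 with clone M.

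**Figure D1:**
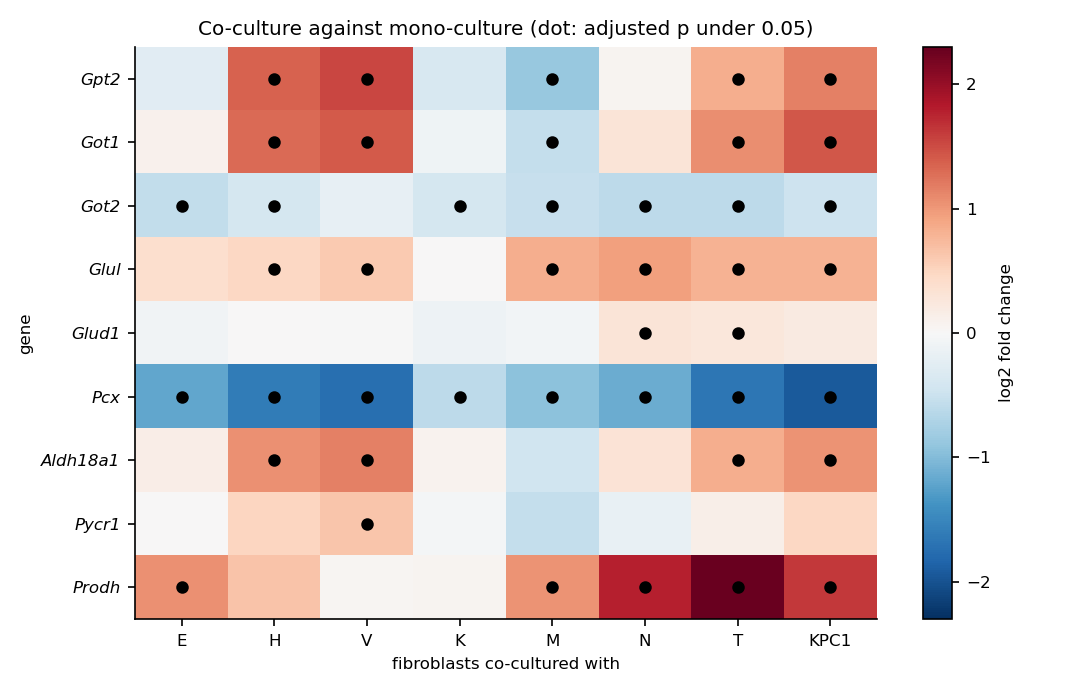
Log2 fold change of each enzyme gene (rows) in each co-culture (columns) against mono-culture, in colour, with a black dot where the adjusted p was under 0.05. Pcx was lower in all 8 co-cultures and Got2 in 7, whereas Gpt2 and Got1 were higher with H, V, T and KPC1 and lower with M.

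Gpt2, the mitochondrial alanine transaminase, differed most between co-cultures among the abundant enzymes. In mono-culture its 4 libraries stood at 77.5, 97.7, 88.9 and 103.8 CPM. With clone V they stood at 342, 303, 242 and 185 CPM, and with clone H at 274, 261, 253 and 154 CPM. All 8 of these libraries lay above every mono-culture library. With KPC1 the values were 218, 259.7, 194 and 146 CPM, and with clone T 158, 212, 167 and 122 CPM, again above the mono-culture range throughout. At the other end, clone M gave 47.0, 53.2, 53.7 and 47.7 CPM, below every mono-culture library. Clone E (104.8, 65.0, 64.8 and 74.2 CPM), clone K (97.6, 68.1, 64.5 and 54.2 CPM) and clone N (93.9, 84.8, 120.1 and 84.1 CPM) overlapped mono-culture. Gpt2 was 2.91-fold higher with clone V (log2 1.54, SE 0.21, adjusted p = 3.6e-07), 2.56-fold higher with H (adjusted p = 3.6e-06), 2.22-fold with KPC1 (2.5e-05) and 1.79-fold with T (0.0013). It was 0.55 times the mono-culture level with clone M (log2 -0.87, SE 0.21, adjusted p = 0.0028). For clones E, K and N the log2 fold changes were -0.25, -0.37 and 0.056 with SEs near 0.21, and none passed.

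Got1, the cytosolic aspartate transaminase, was likewise highest with V, H, T and KPC1 and lowest with M. Its mono-culture libraries stood at 54.9, 66.1, 60.4 and 62.7 CPM. With clone V they stood at 169.8, 168.6, 176 and 133 CPM, and with KPC1 at 178, 210.05, 150.3 and 121 CPM. Clone H gave 139, 163, 185 and 114 CPM and clone T 91.9, 185, 128 and 106 CPM. All 16 of these libraries were above the mono-culture range. Got1 was 2.70-fold higher with KPC1 (log2 1.43, SE 0.18, adjusted p = 4.7e-08), 2.65-fold with V, 2.46-fold with H and 2.09-fold with T. With clone M it stood at 36.5, 41.0, 44.5 and 45.4 CPM, below every mono-culture library, and the log2 fold change was -0.55 (SE 0.18, adjusted p = 0.022). That call rested on single libraries: without clone M replicate 1 the log2 fold change was -0.48 and the adjusted p 0.074, and without mono-culture replicate 2 they were -0.50 and 0.066. With clone N all 4 libraries, 69.9 to 79.9 CPM, lay above mono-culture, but the difference did not pass over all genes (log2 0.29, SE 0.17, adjusted p = 0.19).

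Got2, the mitochondrial aspartate transaminase, went the other way and much less far. Mono-culture libraries stood at 180.1, 196, 186 and 172 CPM, and 31 of the 32 co-culture libraries lay below all of them. The exception was clone V replicate 1, at 185 CPM. Group means in co-culture ran from 120.2 ± 11.1 CPM with clone T to 160.9 ± 17.7 CPM with clone V. Got2 was lower in 7 of 8 co-cultures, by log2 -0.40 (with H and with K) to -0.61 (with N and with T), with adjusted p from 1.4e-06 to 0.0013. With clone V the log2 fold change was -0.19 (SE 0.088, adjusted p = 0.065), and it passed without clone V replicate 1 (-0.26, adjusted p = 0.019) and under scaling by library size alone (-0.29, adjusted p = 0.0026). A processed copy, Got2-ps1, held 12 to 50 counts a library beside 1483 to 3759 for Got2, and how reads shared by both were counted is not given in the sources used here.

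**Figure D2:**
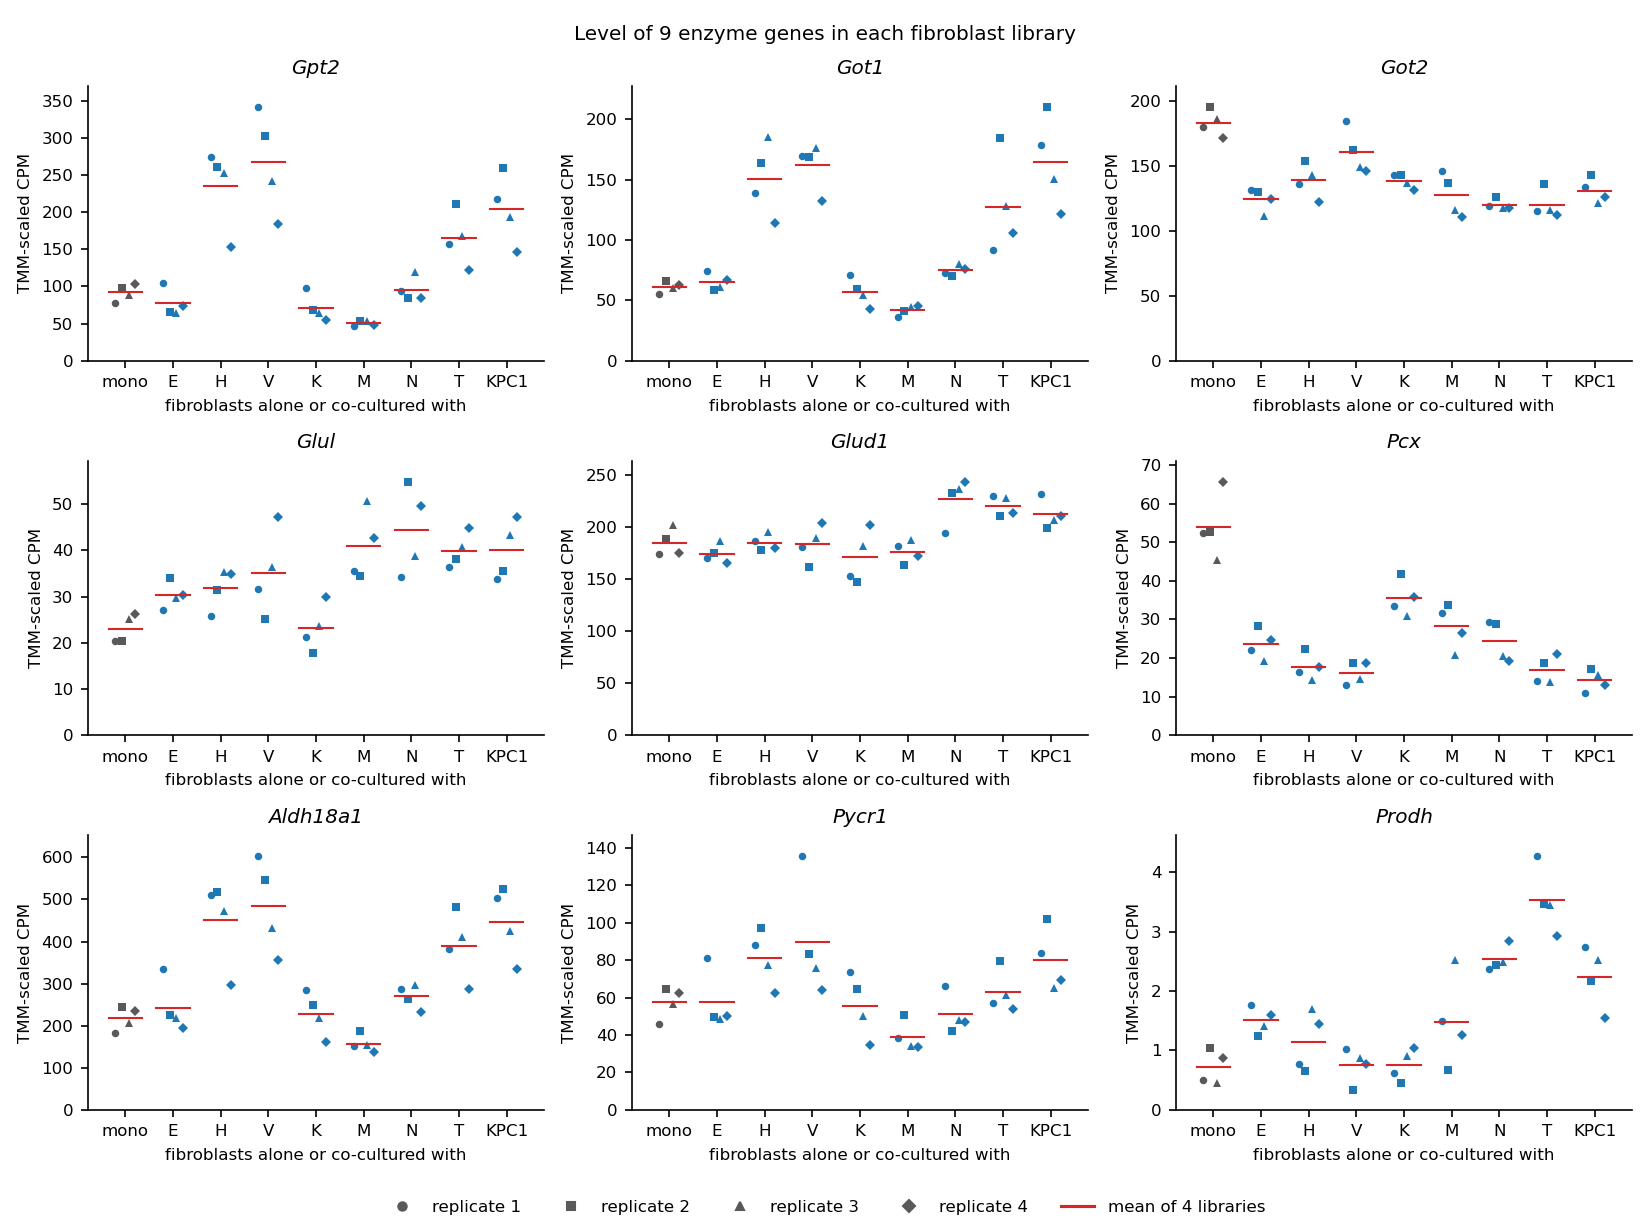
TMM-scaled CPM (vertical axis, from 0) of each enzyme gene in the 36 fibroblast libraries, by group (horizontal axis), with marker shape for the replicate number and a red line for the mean of 4 libraries. Gpt2, Got1 and Aldh18a1 are high with H, V, T and KPC1, all 32 co-culture libraries of Pcx lie under the mono-culture libraries, and Prodh reaches 4.27 CPM at most.

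The ratio of Got1 to Got2, in RPKM within a library, does not depend on scaling between libraries. In mono-culture it was 0.37, 0.42, 0.40 and 0.45. It was 1.64, 1.80, 1.52 and 1.18 with KPC1, and 1.25, 1.31, 1.58 and 1.14 with clone H. In the clone V libraries it was 1.13, 1.27, 1.45 and 1.12, and in the clone T libraries 0.98, 1.66, 1.35 and 1.16. The cytosolic form was above the mitochondrial form per length in all but 1 library of these 4 co-cultures, clone T replicate 1, and below it in all of mono-culture. Relative to mono-culture the ratio was 3.71 times as high with KPC1, 3.21 with H, 3.09 with T and 3.02 with V, and all 4 libraries of each lay above all 4 of mono-culture (exact two-sided permutation test, p = 0.0286, the smallest that 4 against 4 can give; adjusted p = 0.049 over the 24 ratio comparisons made, of which 16 are given here). With clone N (0.75, 0.68, 0.83 and 0.80) and clone E (0.70, 0.56, 0.68 and 0.66) the ratio was 1.87 and 1.58 times the mono-culture value, with the same exact p. Clones K and M did not pass, at 1.21 times (exact p = 0.0857) and 0.99 times (exact p = 0.914).

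Glul, glutamine synthetase, was higher in most co-cultures, in an order unlike that of Gpt2 and Got1. Its mono-culture libraries stood at 20.5, 20.3, 25.2 and 26.2 CPM. With clone N they stood at 34.2, 54.8, 38.9 and 49.5 CPM, and with clone M at 35.5, 34.5, 50.8 and 42.7 CPM. Clone T and KPC1 gave means of 40.0 ± 3.66 and 40.0 ± 6.37 CPM. In these 4 co-cultures every library was above mono-culture, and Glul was 1.92-fold higher with N (log2 0.94, SE 0.17, adjusted p = 5.6e-05), 1.77-fold with M (0.00061), 1.74-fold with KPC1 (0.00021) and 1.73-fold with T (0.00031). With clone V it was 1.52-fold higher (adjusted p = 0.0033) and with clone H 1.38-fold (log2 0.47, adjusted p = 0.022); the latter did not pass without clone H replicate 3, clone H replicate 4, mono-culture replicate 1 or mono-culture replicate 2 (log2 0.41 to 0.42, adjusted p = 0.058 to 0.071) or under scaling by library size alone (log2 0.38, adjusted p = 0.079). With clone E all 4 libraries, 27.04 to 33.97 CPM, were above mono-culture but the test did not pass (log2 0.39, SE 0.17, adjusted p = 0.082). With clone K the libraries stood at 21.3, 17.7, 23.6 and 29.9 CPM, on both sides of mono-culture (log2 0.0082, SE 0.17). The mean epithelial sum was higher with N and T than with V and H as well, while clone E had a larger sum than V and H and a lower mean of Glul. The part of tumour transcripts in the Glul result was not tested.

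Glud1, glutamate dehydrogenase, moved least. Its group means lay between 171.2 ± 25.6 CPM with clone K and 227.1 ± 22.1 CPM with clone N, with mono-culture at 185.1 ± 13.01 CPM. It was higher with clone N (1.23-fold, log2 0.30, SE 0.088, adjusted p = 0.0078) and with clone T (1.19-fold, adjusted p = 0.017), the latter not without mono-culture replicate 1 (log2 0.22, adjusted p = 0.056) or under scaling by library size alone (log2 0.18, adjusted p = 0.098). With the libraries numbered 4 left out of all groups, the clone N call was lost as well (log2 0.22, adjusted p = 0.065). With KPC1 the log2 fold change was 0.20 (adjusted p = 0.052). In the other 5 co-cultures it lay between -0.11 and 0.0004, each with an SE of 0.088, and with H and with V its sign changed with the scaling or the filter. An interval of 2 SE around these values stayed within 0.29 of 0 on the log2 scale.

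Pcx, pyruvate carboxylase, was the enzyme lowered in every co-culture. Mono-culture libraries stood at 52.4, 52.6, 45.3 and 65.6 CPM. With KPC1 they stood at 11.1, 17.1, 15.6 and 13.1 CPM, and with clone V at 12.9, 18.8, 14.5 and 18.8 CPM. Clone T gave 14.1, 18.8, 13.9 and 20.97 CPM and clone H 16.3, 22.4, 14.2 and 17.8 CPM. In these 4 co-cultures Pcx fell to 0.26, 0.30, 0.31 and 0.33 times the mono-culture level (adjusted p from 6.7e-10 to 1.9e-08). With clone E the libraries stood at 22.01, 28.3, 19.3 and 24.7 CPM, with N at 29.2, 28.9, 20.6 and 19.2 CPM and with M at 31.7, 33.7, 20.9 and 26.5 CPM. They were 0.44, 0.45 and 0.52 times mono-culture (adjusted p = 7.3e-06, 7.4e-06 and 0.00022). With clone K the libraries stood at 33.6, 41.8, 30.8 and 35.8 CPM (0.66 times, log2 -0.61, SE 0.18, adjusted p = 0.014). That call was lost without clone K replicate 3 (log2 -0.54, adjusted p = 0.059) and without mono-culture replicate 4 (log2 -0.50, adjusted p = 0.072). All 32 co-culture libraries lay below the 4 mono-culture libraries, as they did for 4.17% of all genes tested. Pcx was lowest with KPC1, V, T and H, the 4 co-cultures in which Got1 was highest.

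Pcx and the gene Lrfn4 overlap on opposite strands. The library kit keeps strand, but whether counting used it is not given in the sources used here, so reads of the pair may be mixed. Lrfn4 had group means of 55.7 ± 3.30 to 67.5 ± 1.56 CPM with 59.1 ± 1.54 CPM in mono-culture, and stood at 64.2 ± 2.16 CPM beside KPC1, where Pcx was lowest.

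Aldh18a1 makes the intermediate glutamate semialdehyde and was the most abundant of the 3 proline enzymes. Its mono-culture libraries stood at 182, 245, 207 and 236 CPM. With clone V they stood at 602, 546, 432 and 357 CPM, with H at 512, 519, 473 and 297 CPM and with KPC1 at 502, 526, 425 and 336 CPM. Clone T gave 383, 482, 409.9 and 286 CPM, and every library of these 4 co-cultures lay above mono-culture. The fold changes were 2.23 with V (log2 1.16, SE 0.20, adjusted p = 1e-05), 2.07 with H (4.8e-05), 2.06 with KPC1 (4.2e-05) and 1.80 with T (0.00067). With clone M the values were 151, 188, 154 and 137 CPM, and the difference did not pass (log2 -0.47, SE 0.20, adjusted p = 0.086), but it did under scaling by library size alone (log2 -0.49, adjusted p = 0.047) and in a fit of only the libraries compared (log2 -0.45, adjusted p = 0.0088). With clones N, E and K the log2 fold changes were 0.31, 0.16 and 0.074. The library numbered 4 was the lowest in all 8 co-cultures, though not in mono-culture, and for Gpt2 and Got2 in 6 of 8. The labels do not say what a number shared between groups marks. With the libraries numbered 4 left out of all groups, Aldh18a1, Gpt2 and Got1 kept all the calls given above, and Aldh18a1 also passed with clone N (log2 0.41, adjusted p = 0.045).

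Pycr1 completes proline synthesis and passed against mono-culture in 1 co-culture. Mono-culture libraries stood at 46.1, 64.7, 56.3 and 62.6 CPM. With clone V they stood at 135, 83.2, 75.8 and 64.0 CPM, and Pycr1 was higher (1.56-fold, log2 0.64, SE 0.23, adjusted p = 0.016). That call was lost without clone V replicate 1 (log2 0.38, adjusted p = 0.16) and without mono-culture replicate 1 (log2 0.55, adjusted p = 0.062). With KPC1 all 4 libraries, 64.9 to 102.1 CPM, were above mono-culture (log2 0.48, SE 0.23, adjusted p = 0.069), and with H the log2 fold change was 0.50 (adjusted p = 0.062). With clone M the 4 libraries, 33.8 to 50.5 CPM, gave a log2 fold change of -0.55 (adjusted p = 0.080). With clones N, K, E and T the log2 fold changes were -0.17, -0.046, 0.0026 and 0.13. Whether Pycr1 and Aldh18a1 changed unequally was not tested.

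**Figure D3:**
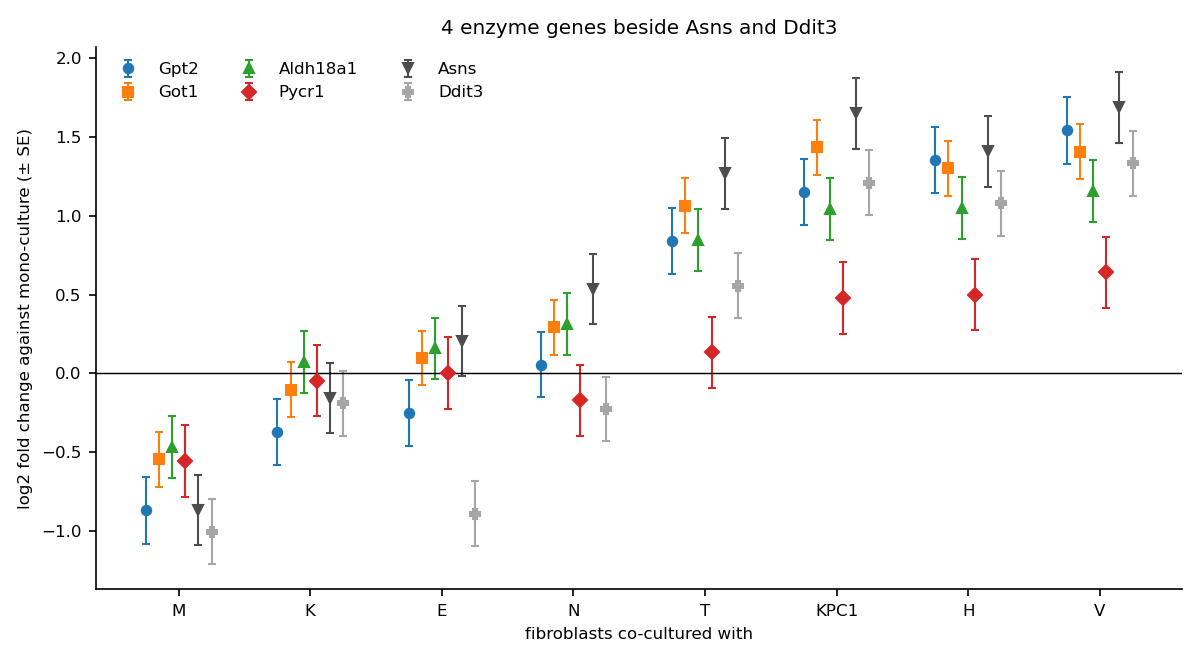
Log2 fold change against mono-culture (vertical axis, with SE bars) of Gpt2, Got1, Aldh18a1 and Pycr1, beside Asns and Ddit3, in the 8 co-cultures (horizontal axis). All 6 genes are lowest or among the lowest with clone M and high with KPC1, H and V, and all co-cultures share the same mono-culture libraries.

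Prodh, which oxidises proline in mitochondria, was scarce and rose in other co-cultures. Mono-culture libraries stood at 0.50, 1.04, 0.46 and 0.87 CPM. With clone T they stood at 4.27, 3.46, 3.44 and 2.93 CPM, with clone N at 2.37, 2.44, 2.48 and 2.83 CPM and with KPC1 at 2.74, 2.17, 2.52 and 1.54 CPM. All 12 of these libraries were above mono-culture, and the folds were 4.81 with T (log2 2.27, SE 0.35, adjusted p = 3.3e-06), 3.46 with N (0.00013) and 3.07 with KPC1 (2e-04). With clone E the libraries stood at 1.77, 1.25, 1.41 and 1.59 CPM (2.06-fold, adjusted p = 0.023) and with clone M at 1.49, 0.67, 2.52 and 1.27 CPM (2.04-fold, adjusted p = 0.034). The clone E call was lost without clone E replicate 1 (log2 0.96, adjusted p = 0.063), mono-culture replicate 1 (log2 0.88, adjusted p = 0.085) or mono-culture replicate 3 (log2 0.89, adjusted p = 0.079). The clone M call was lost without clone M replicate 1 or 3 (log2 1.03 and 0.64, adjusted p = 0.057 and 0.26) or mono-culture replicate 1 or 3 (log2 0.87 for each, adjusted p = 0.11), with no filter on low counts (adjusted p = 0.052), or in a fit of only the libraries compared (adjusted p = 0.064). With V and K, at means of 0.75 ± 0.29 and 0.75 ± 0.26 CPM, Prodh stood near mono-culture, at 0.72 ± 0.29 CPM. The order of Prodh over co-cultures, T, N, KPC1, E, M, H, V and K, is close to that of the epithelial sum, N, T, KPC1, E, M, H, K and V, and the part of tumour transcripts in it was not tested. Prodh also overlaps Dgcr6 on the opposite strand, which had a mean of 24.03 ± 1.39 CPM in mono-culture and lower means, of 15.7 to 20.2 CPM, in all 8 co-cultures.

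The ratio of Pycr1 to Prodh within a library sets the last step of proline synthesis against the first step of its breakdown. It was 76.2, 50.7, 101.1 and 59.0 in mono-culture. With clone T it was 10.98, 18.8, 14.6 and 15.1, and with clone N 22.9, 14.2, 15.8 and 13.6. These are 0.21 and 0.23 times the mono-culture ratio. With KPC1 (0.42 times) and clone E (0.44 times) the 4 libraries also lay below all of mono-culture (exact permutation p = 0.0286 for each of the 4, adjusted p = 0.049). With 0.5 RPKM added to both genes the KPC1 difference did not pass (exact permutation test, adjusted p = 0.11). With clone V the ratio was 109.0, 202, 71.2 and 67.4, which is 1.46 times mono-culture (exact p = 0.257), and H and K were at 0.89 times each (exact p = 0.771). Clone M, at 21.04, 61.9, 11.05 and 21.8, was 0.34 times mono-culture and did not pass (exact p = 0.0857), though it did with 0.5 RPKM added (adjusted p = 0.049). The counts of Prodh set the precision of this ratio.

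**Figure D4:**
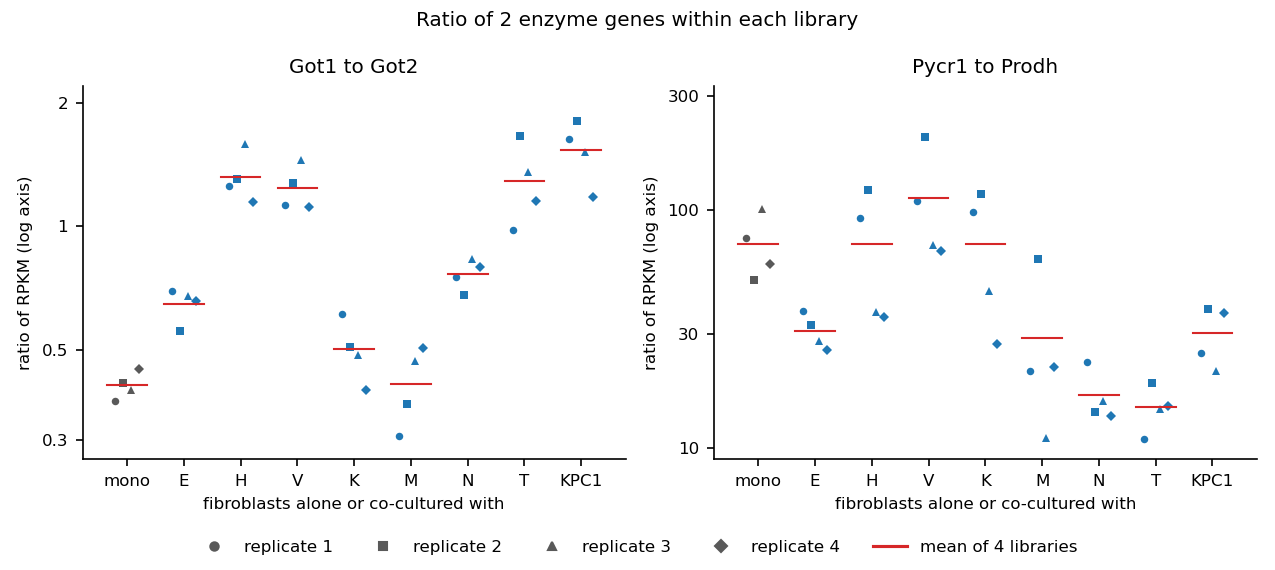
Ratio of RPKM of 2 enzyme genes within each library (vertical axes, log scale) by group (horizontal axes), with marker shape for the replicate number and a red line for the mean of 4 libraries. The Got1 to Got2 ratio is above 0.97 in every library with H, V, T and KPC1, and the Pycr1 to Prodh ratio is lowest with T and N.

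Gpt2, Got1, Aldh18a1 and Pycr1 moved together over the groups. Over the 9 group means of log2 CPM, Pearson's r was 0.98 for Gpt2 with Got1, 0.98 for Gpt2 with Aldh18a1, 0.99 for Got1 with Aldh18a1 and 0.93 to 0.95 for Pycr1 with the other three. Genes outside the 9 had r as high, such as Cct8 with Got1 (0.997) and Mrs2 with Pycr1 (0.99). An r of this size is thus not particular to these 4 enzymes. These r values describe 9 points, each the mean of 4 libraries, and depth and tumour transcripts differ between them as well. Pcx had r between -0.61 and -0.80 with these 4 enzymes, and Prodh had r between -0.11 and 0.21. Prodh went with Glul (0.77) and Glud1 (0.81) and against Got2 (-0.80). With Atf4, which encodes a transcription factor that induces amino acid synthesis genes, r was 0.98 for Gpt2, 0.97 for Got1, 0.97 for Aldh18a1 and 0.97 for Pycr1, and with its target Asns 0.92 to 0.99. For Got2, Glul, Glud1 and Prodh, r with Atf4 lay between 0.035 and 0.37, and for Pcx it was -0.64. With Mki67, a marker of proliferation, r was 0.82 for Gpt2, 0.83 for Got1, 0.78 for Aldh18a1 and 0.78 for Pycr1.

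The promoters of these 4 genes are shown because their transcripts moved together. RefSeq promoters were matched for all 9 enzymes, 10 in all since Pcx has a pair of starts, on build GRCm38 (mm10). Each line gives the 250 bases before the transcription start, 5′ to 3′ on the strand of the gene, with matches in capitals to TGATGNAA, a form of the element bound by ATF4 with C/EBP partners, or to CACGTG, the E-box bound by MYC and related factors.
Gpt2, chr8:85492326-85492575, plus strand: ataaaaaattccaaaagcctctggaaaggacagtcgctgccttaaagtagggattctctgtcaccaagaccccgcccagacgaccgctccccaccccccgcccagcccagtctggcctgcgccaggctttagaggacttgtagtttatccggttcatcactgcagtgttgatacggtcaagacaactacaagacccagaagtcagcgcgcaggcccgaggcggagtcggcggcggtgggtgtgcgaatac
Got1, chr19:43524606-43524855, minus strand: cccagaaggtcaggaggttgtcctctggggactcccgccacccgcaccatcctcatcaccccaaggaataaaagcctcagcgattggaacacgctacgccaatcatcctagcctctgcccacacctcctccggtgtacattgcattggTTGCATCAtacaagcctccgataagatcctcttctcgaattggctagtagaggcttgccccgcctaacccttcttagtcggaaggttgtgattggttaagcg
Aldh18a1, chr19:40588464-40588713, minus strand: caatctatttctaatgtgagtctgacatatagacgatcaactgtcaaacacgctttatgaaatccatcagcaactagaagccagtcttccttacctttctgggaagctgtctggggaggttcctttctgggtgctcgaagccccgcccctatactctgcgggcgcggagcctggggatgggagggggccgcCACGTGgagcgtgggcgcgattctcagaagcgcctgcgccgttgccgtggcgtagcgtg
Pycr1, chr11:120643749-120643998, minus strand: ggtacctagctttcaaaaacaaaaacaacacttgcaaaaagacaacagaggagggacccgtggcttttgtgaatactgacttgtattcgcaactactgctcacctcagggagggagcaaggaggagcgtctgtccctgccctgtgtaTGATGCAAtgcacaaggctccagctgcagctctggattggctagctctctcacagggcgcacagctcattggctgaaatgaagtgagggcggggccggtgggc
TGATGNAA, searched on both strands in 250 bases before to 50 bases after the start, was found in Got1, 102 bases before the start and on the opposite strand, and in Pycr1, 103 bases before it. It was in no other of the 10 promoters and in 3.97% of the 32851 mouse promoters of the same length. CACGTG reads the same on both strands, does not overlap a TGATGNAA match here, and was found in Aldh18a1, 59 bases before the start, in 1 of the Pcx promoters, 248 bases before it, and in 7.15% of all promoters. A match describes these letters and is not a measured binding site, and the Gpt2 window held neither.

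By GENCODE positions on the same build, Gpt2 lies at chr8:85492576-85527560 and Got1 at chr19:43499752-43524605. Aldh18a1 lies on the same chromosome as Got1, at chr19:40550257-40588463, and so does Pcx, at chr19:4510472-4621752. Pycr1 lies at chr11:120635712-120643769, Got2 at chr8:95864134-95888547, Glul at chr1:153899944-153909723, Glud1 at chr14:34310727-34345265 and Prodh at chr16:18060357-18090203. All 9 are annotated as protein coding, and counts cover whole genes, so isoforms were not separated.

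Between the 7 clonal co-cultures alone, which leaves mono-culture out, all 9 enzymes differed, against 67.5% of genes tested. The adjusted p of the F-test was 5.8e-11 for Gpt2, 6.6e-11 for Got1, 8.5e-08 for Aldh18a1, 1.5e-06 for Prodh and 5.4e-06 for Pcx. It was 0.00017 for Glud1, 0.00031 for Glul, 0.00052 for Pycr1 and 0.00063 for Got2. The range of the log2 level between the highest and the lowest clone was 2.37 for Gpt2, 2.23 for Prodh and 1.95 for Got1, and 6.48%, 7.53% and 10.3% of genes tested had a larger range. At the other end the range was 0.42 for Got2 and 0.41 for Glud1, under the median of 0.70 over all genes tested. Ordered by mean, 6 of the 72 steps between neighbouring groups had libraries that did not overlap, a larger share than the 3.5% of such steps over all genes tested. They were T above N for Gpt2 and for Got1, K above M for Gpt2, KPC1 above H for Glud1, mono-culture above K for Pcx, and T above N for Prodh. Neighbours elsewhere in the order, such as V, H and KPC1 for Gpt2, Got1 and Aldh18a1, had overlapping libraries.

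The mean of the 7 clonal co-cultures differed from mono-culture for 6 of the 9, against 49.2% of genes tested. Pcx fell to 0.41 times (log2 -1.27, SE 0.12, adjusted p = 6.3e-10) and Got2 to 0.72 times (log2 -0.47, SE 0.064, adjusted p = 4.4e-07). Prodh was 1.98-fold higher (adjusted p = 0.005), Glul 1.49-fold (0.00075), Got1 1.42-fold (0.0028) and Aldh18a1 1.36-fold (0.016). Aldh18a1 did not pass without mono-culture replicate 1 (log2 0.36, adjusted p = 0.099) or replicate 3 (log2 0.42, adjusted p = 0.060). For Gpt2 the rises and falls between clones left a mean log2 fold change of 0.33 that did not pass (SE 0.16, adjusted p = 0.092). KPC1 against the mean of the 7 clones differed for 6 of the 9, against 41.1% of genes tested. Got1 was 1.91-fold higher with KPC1 (log2 0.93, SE 0.12, adjusted p = 1.2e-06), Gpt2 1.77-fold (6e-05), Prodh 1.55-fold (0.033), Aldh18a1 1.51-fold (0.0012) and Pycr1 1.32-fold (0.048), and Pcx was 0.64 times as high (log2 -0.65, adjusted p = 0.00068). The Prodh call was lost without KPC1 replicate 1, 2 or 3 (log2 0.52, 0.66 and 0.58, adjusted p = 0.15, 0.060 and 0.097), and the Pycr1 call without KPC1 replicate 1 or 2 (log2 0.38 and 0.28, adjusted p = 0.14 and 0.27) or without any of 18 clone libraries (log2 0.39 to 0.40, adjusted p = 0.055 to 0.059). The Pycr1 call also did not pass with RLE scaling (adjusted p = 0.054) or scaling by library size alone (0.056).

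Other genes of the same pathways were read from 5 lists, none of which holds any of the 9 enzymes. Of all genes tested, 58.3% passed with V, 59% with KPC1, 54.2% with H and 49.8% with T. The share was 39% with N, 32% with E, 23% with M and 19.1% with K, and counts over lists stand beside these shares. Of 14 genes that handle glutamine and glutamate, 9 were higher and 2 lower with clone V and 9 higher and 2 lower with KPC1 (median log2 fold change 0.70 and 0.52), 8 were higher with H (0.54), 6 higher and 1 lower with T (0.37), and 5 were lower with M (-0.26). Clones E, N and K gave 2 higher and 1 lower, 3 higher, and 1 higher. Asns, asparagine synthetase, rose from 173.4 CPM in mono-culture to 558.1 with V and 543.7 with KPC1, and fell to 95.1 with M (log2 -0.87, adjusted p = 0.0048). Gfpt2, which uses glutamine to make glucosamine phosphate, was 1.78 log2 units higher with KPC1 and 1.40 with H. Slc1a3, a glutamate and aspartate transporter, broke from this order, at 34.5 CPM with clone K and 13.9 CPM in mono-culture (log2 1.32, adjusted p = 5e-06).

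Of 13 genes of aspartate use and the malate-aspartate shuttle, 10 differed among the clones (67.5% of all genes tested did), and calls against mono-culture were split in direction in 7 of 8 co-cultures, for instance 5 higher and 4 lower with V and 5 higher and 3 lower with T; with K 3 were lower and none higher. Cad, which starts pyrimidine synthesis from aspartate and glutamine, was higher with H (log2 1.06, adjusted p = 3.8e-06), KPC1 (0.97), V (0.94), T (0.76) and E (0.51). Mdh2, mitochondrial malate dehydrogenase, was higher with V (log2 0.52, adjusted p = 1.8e-06), KPC1 (0.41), H (0.33) and T (0.28). Aspa, which cleaves N-acetylaspartate, was scarce, at 1.97 ± 0.64 CPM in mono-culture, and was higher with T (log2 0.94, adjusted p = 0.0047) and lower with V (-0.92, 0.0076) and with K (-0.88, 0.029).

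From the proline and ornithine list 8 genes were tested, and all 8 passed with KPC1, 3 higher and 5 lower, against 59% of all genes tested. Another 6 each passed with H and V, 3 higher and 3 lower, against 54.2% and 58.3%. With T and N 2 were higher and 3 lower, with E 2 higher and 2 lower, with M 2 lower and with K 1 lower. Aldh4a1, which follows Prodh in proline breakdown, was lower in 6 of 8 co-cultures, all but K and M, from log2 -0.64 with E to -1.93 with KPC1 (adjusted p = 6.2e-09), while Prodh was higher in 4 of them. Odc1, ornithine decarboxylase, was higher with V (log2 1.07), H (0.66) and KPC1 (0.63) and lower with M (-0.83).

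Of 16 tested genes of pyruvate entry and anaplerosis, calls again went both ways, at 4 higher and 5 lower with H, 3 and 4 with V, 5 and 3 with T, 3 and 6 with N, 5 and 5 with KPC1, 1 and 5 with E, and 4 lower with each of K and M. Over all genes tested, 54.2% passed with H, 58.3% with V and 59% with KPC1, and the other shares are given above. Citrate synthase, Cs, which uses oxaloacetate, was higher with H (log2 0.50, adjusted p = 1.1e-05), KPC1 (0.47), V (0.45), T (0.31) and N (0.25). Pdk2, a kinase that inhibits pyruvate dehydrogenase, was lower with V (log2 -1.18, adjusted p = 1.4e-06), H (-0.74) and KPC1 (-0.44). Pdk3, of the same family, was higher with V (0.68), H (0.66), KPC1 (0.43), N (0.32) and T (0.24).

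The 13 integrated stress response genes, a set induced when translation initiation factor eIF2 is phosphorylated, were likewise highest with V and H and lowest with M. With H and with V all 13 passed, 12 higher and 1 lower, with median log2 fold changes of 0.99 and 1.083. Over all genes tested, 54.2% passed with H and 58.3% with V. With KPC1 11 were higher and 1 lower (median 0.92) and with T 10 higher and 1 lower (0.76), and with M 8 were lower and none higher (-0.73). With E 1 was higher and 2 lower, with N 2 and 1, and with K 1 and 1. The gene that was lower with H, V, T, KPC1, N and K was Atf5 in each case, a transcription factor related to Atf4, named here after its values were seen, at log2 -2.41 with H (adjusted p = 3e-09) and -0.65 with K (adjusted p = 0.043). Atf5 was also 1 of the 2 genes lower with E (log2 -1.50, adjusted p = 1.1e-05). Ddit3, a transcription factor of this response, was 1.33 log2 units higher with V and lower with M (log2 -1.004, adjusted p = 0.00055), and it was also lower with E (-0.89, adjusted p = 0.0013), where Gpt2, Got1, Aldh18a1 and Pycr1 did not pass. Phgdh, the first enzyme of serine synthesis, was higher with V (log2 1.083), KPC1 (0.92), T (0.74) and H (0.69) and lower with M (-0.87). Nupr1, a stress-induced chromatin protein, was higher with KPC1 (1.70), V (1.62), H (1.52), T (1.082) and N (0.51).

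Of 11693 other genes (11694 for Prodh) at 2 CPM or more, those whose group means followed each enzyme most closely are named as a description over 9 groups. They were Lonrf3 and Slc3a2 for Gpt2 (r = 0.99 for each), Cct8 and Slc25a39 for Got1 (0.997 and 0.996), and the methionyl and tyrosyl tRNA synthetases Mars and Yars for Aldh18a1 (0.997 and 0.996). For Pycr1 they were Mrs2 and Usp14 (0.99), for Pcx Cacna1a and Cdkn2c (0.99) and for Got2 Taf6l and Lig1 (0.98 and 0.97). For Prodh they were Dennd3 and Tgfa (0.99 and 0.97), for Glul Sox13 and Mctp1 (0.94) and for Glud1 Vdac2 and Vim (0.94 and 0.93). The likeness was lower for Glul and Glud1 than for the other 7.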

How the data were processed

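RNA was sequenced from fibroblasts in 36 libraries, 4 in each of 9 groups taken from the labels, and sample columns that could not be mapped numbered 0. The submitters' processing notes name STAR (an aligner), featureCounts (a read counter), edgeR and build mm10, without versions, roles, strand setting or handling of shared reads. The counts deposited by the authors are whole numbers per gene, not normalized, for 39017 genes. The deposited RPKM values, for 37746 genes, are the authors' counts divided by library total and gene length, which the values bear out (ratio 0.9997 to 1.0002). Libraries held 12532122 to 21985538 counts (mean 18177806, SD 2418484), which limits precision mainly for Prodh.

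Counts were filtered with filterByExpr, which left 14439 genes, scaled by TMM and fitted over all 36 libraries with edgeR 4.0.16 (limma 3.58.1, R 4.3.3), using the robust quasi-likelihood fit with 1 coefficient per group. Contrasts set each co-culture, and the mean of the 7 clones, against mono-culture, and KPC1 against the 7 clones; an F-test compared the 7 clones. All adjusted p-values of log2 fold changes are from edgeR with Benjamini-Hochberg adjustment over the genes tested. Ratios of RPKM were compared by exact two-sided permutation (scipy 1.17.1). The programme was tested on simulated data. Alternatives were DESeq2 1.42.0, RLE scaling, no filter, library size alone, a minimum of 10 counts in each library, a replicate block, limma-trend on log2(RPKM + 1), only the libraries compared, each library left out, and 0.5 RPKM added for ratios. Leaving out the libraries numbered 4 was chosen after seeing the data.

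All 9 enzymes were described. From each pathway list the 3 genes with the smallest F-test p among those at 2 CPM or more were named, and for each enzyme the 2 genes with the highest correlation of mean log2 CPM. Results for some genes, among them 1 that this rule names and 1 set of ratios, are not reported here, though the counts over lists and ratios hold them. The 9 enzymes and the lists were chosen with earlier results of these data known. Of the lists, Prodh2, Arg1, Arg2 and Pck1 did not pass the filter, and Pycr3 stands in the table under its older symbol Pycrl, which was tested. Positions are from GENCODE M21 and promoters from RefSeq (GRCm38.p6). No 2 libraries of a group agreed within sampling noise (54 pairs, smallest chi-square per degree of freedom 5.84). Protein sequences were not used here.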

Additional observations from a re-analysis of the deposited data

Results flagged for a closer look

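Pycr1 in clone E replicate 1, at 81.2 CPM, stood apart from the other libraries of its group, at 48.7 to 50.3 CPM. Its gap to the nearest of them was 0.949 of the range of the group, above Dixon's critical value for 4 libraries. This was 1 of 81 sets of 4 libraries examined, of which chance alone gives about 1 in 20, or 4.05 sets. Without it the log2 fold change of Pycr1 with clone E was -0.21.

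All 9 enzymes differed in level between the 7 clonal co-cultures in edgeR's F-test, which tests the difference between co-cultures itself. The adjusted p was 5.8e-11 for Gpt2, 6.6e-11 for Got1, 8.5e-08 for Aldh18a1, 1.5e-06 for Prodh and 5.4e-06 for Pcx. For Glud1 it was 0.00017, for Glul 0.00031, for Pycr1 0.00052 and for Got2 0.00063, beside 67.5% of all genes tested that passed the same test.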

How the results depend on the processing

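Of 100 counts of calls under another setting, 99 stayed within 1.5 times, as did 154 of 156 with 1 library left out. With clone K the count was 1 with replicates 1 to 3 of every group, and 1 to 2 with 1 library left out (1 without clone K replicate 3 or mono-culture replicate 4). Of 880 values of single enzymes under other settings, 805 kept direction and call, 28 gained a call, 17 lost it and 30 changed sign. With 1 library left out, 1307 of 1404 kept both, 18 gained a call, 43 lost it and 36 changed sign. None of the enzyme values that changed sign passed the threshold, and the cause was not tested. For Pycr1 with clone E the log2 fold change turned to -0.0024 with DESeq2, -0.0019 with RLE scaling, -0.050 with library size only, -0.0056 with at least 10 counts in every library, -0.037 with the replicate block and -0.070 with limma-trend. For Glud1 with clone H it was -0.0090 with DESeq2, -0.0093 with RLE scaling, -0.089 with library size only, -0.029 with at least 10 counts, -0.086 with limma-trend, -0.0038 with only the libraries compared and -0.019 with replicates 1 to 3, and for Glud1 with V 0.013 with no filter. With library size only, Prodh with V was -0.048, Glul with K -0.038, Gpt2 with N -0.0065 and Glud1 over the mean of 7 clones -0.023. With limma-trend these were -0.0046, -0.055, -0.013 and -0.025, and Pycr1 over the mean of 7 clones was -0.0090. With the replicate block Prodh was -0.024 with V and -0.0024 with K. With replicates 1 to 3, Got1 with K was 0.020, Glul with K -0.079, Pycr1 with K 0.17, Prodh with K -0.041 and Glud1 over the mean of 7 clones -0.012. With 1 library left out, values that crossed 0 ran from -0.21 to 0.084 (Pycr1, E), -0.030 to 0.24 (Aldh18a1, E), -0.032 to 0.046 (Glud1, H), -0.056 to 0.052 (Glud1, V) and -0.14 to 0.29 (Prodh, V). With K they ran from -0.23 to 0.013 (Got1), -0.14 to 0.12 (Glul), -0.21 to 0.13 (Pycr1), -0.050 to 0.21 (Aldh18a1) and -0.14 to 0.29 (Prodh). For Gpt2 with N the range was -0.067 to 0.12, for Pycr1 over the mean of 7 clones -0.029 to 0.14, and for Got2 with KPC1 against the clones -0.047 to 0.021. With 1 library left out the 192 ratio differences moved by less than the SD of the co-culture's libraries, and 10 changed sign, none of them for a ratio called with all libraries. These were taken as values, since 4 against 3 libraries can be tested but the unadjusted p cannot go below 0.0571. With 0.5 RPKM added, the log2 difference of the Pycr1 to Prodh ratio with H was 0.15, the KPC1 call was lost (-0.44, exact permutation test, adjusted p = 0.11) and the M call gained (-1.02, adjusted p = 0.049).

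The labels give no meaning to a replicate number shared between groups, and same-numbered libraries deviated together (r over 0.1) in 63 of 112 pairs of co-cultures and 5 of 32 with mono-culture. The median r was 0.14 over pairs of co-cultures and -0.023 with mono-culture. The main fit did not treat the samples as paired, though co-cultures of the same number may not be independent. A library correlated best with its own number, out of 4, in 55 of 112 co-culture pairs and 7 of 32 with mono-culture. The running numbers in the sample titles also list the co-cultures in sets by replicate number, with the mono-culture libraries after them. The titles do not say what such a set was. A replicate block raised the count of enzymes called from 7 to 9 with KPC1, 6 to 8 with M, 6 to 7 with H and with V, 3 to 4 with E and 6 to 7 for KPC1 against the clones, and left the others as they were. By edgeR's adjusted p the calls gained were Glul with E (0.015), Pycr1 with H (0.029), M (0.017) and KPC1 (0.034), Got2 with V (0.014), Aldh18a1 with M (0.0068), and Glud1 with KPC1 (0.031) and for KPC1 against the clones (0.028). A fit of only the libraries compared also gained Got1 (0.0070) and Aldh18a1 (0.029) with N. Scaling by TMM against library size shifted all genes by 0.096 log2 units at most. Depth limits Prodh, with 6 to 76 counts a library, more than the other 8 enzymes.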
